A study of Mus musculus with 5375 samples.

Results

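The interferon-induced transmembrane genes Ifitm1, Ifitm2 and Ifitm3 were followed through 24 libraries of lung endothelial cells (ECs) and tumour cells (TCs). They are 3 of the 35351 genes listed in the deposited tables, and they were chosen by name after earlier results of these data, the CPM of Ifitm3 in intravascular and extravascular TCs, had been seen. The level of the members in CPM (estimated counts, with each library scaled to the same total) and the share of cells with a value above 0 are therefore given as descriptions. Female BALB/c mice of wild-type genotype, 8 to 12 weeks old, received 4T1-GFP cells through the tail vein. These are a BALB/c breast cancer line carrying green fluorescent protein, stained beforehand with CellTrace, a dye diluted by each division. ECs were sorted as CD31+ cells lacking CD45, PDPN, LYVE1 and TER119. They came from uninjected control animals (day 0, 4 animals, 839 kept cells) and from injected animals on day 1.5 (3 animals, 941 cells) and day 3.5 (3 animals, 699 cells). On day 1.5 an anti-H-2Kd antibody given into the circulation before sampling separated stained, intravascular TCs (325 cells) from unstained, extravascular TCs (306 cells), with 4 animals each. On day 3.5 dye-retaining TCs were sorted as latent (4 animals, 329 cells) and cells with diluted dye as proliferative (237 cells). The proliferative gate has 4 replicates by the labels and the study's methods. Its cells all carry 1 animal's name in the annotation and could not be tied to these replicates, so they were used as 1 pool. Another pool was formed by 369 uninjected cells of the same culture. The gates were not described as pure, and the libraries of a TC gate were sequenced together, so gate and sequencing lane cannot be told apart.

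IFITM proteins are small membrane proteins of the plasma membrane, endosomes and lysosomes that restrict the entry of many enveloped viruses. Interferons bind receptors that activate kinases of the JAK family and, through them, transcription factors that raise the genes through a promoter element known as the interferon-stimulated response element (ISRE). Endothelial cells are among the cell types known for high basal IFITM3, and some tumours carry high IFITM levels as part of an interferon signature.

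All 3 genes lie in a cluster on chromosome 7 (GRCm38, GENCODE release M21). Ifitm2 spans chr7:140954837-140955987 on the minus strand with 2 exons and a transcript of 655 bases. Ifitm1 spans chr7:140967221-140969825 on the plus strand with 3 transcripts of 560 to 882 bases. Ifitm3 spans chr7:141009586-141010770 on the minus strand with 2 exons and a transcript of 678 bases. The members share part of their sequence with each other and with other gene models, and the reads were 50 bases long. Of the 629 stretches of 50 bases in the Ifitm3 transcript, 10.02% also occur in another gene, and 3.18% occur in Ifitm2. The corresponding share was 5.02% for Ifitm1 and 48.5% for Ifitm2, where 36.1% is shared with Gm45717, a gene model that overlaps it on the same strand. Gm45717 itself was listed at 105 to 153 CPM in the EC libraries and at 2.83 to 7.88 CPM in the TC libraries, against 2263 to 3912 CPM and 541 to 882 CPM for Ifitm2. How the counting divided the shared reads was not tested.

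The sequence near the gene starts is shown because the genes are known for their interferon element. Windows from 250 bases before to 50 bases after each RefSeq start (GRCm38.p6) were searched on both strands for the letters GAAANNGAAA, called ISRE-like below. This motif occurs in 1131 of 32851 such windows (3.44%), and 74 windows (0.225%) hold it at least 2 times. Matches are in capitals. The first line is the 120 bases at chr7:140955992-140956111 upstream of Ifitm2, the second the 120 bases at chr7:141010775-141010894 upstream of Ifitm3, and the third 30 bases at chr7:141010714-141010743 within the first exon of Ifitm3, all read on the minus strand:
Ifitm2 upstream: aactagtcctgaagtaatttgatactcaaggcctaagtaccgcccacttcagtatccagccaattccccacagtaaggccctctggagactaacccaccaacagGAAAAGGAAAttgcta
Ifitm3 upstream: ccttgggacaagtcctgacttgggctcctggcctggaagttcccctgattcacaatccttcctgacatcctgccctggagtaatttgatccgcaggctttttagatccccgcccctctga
Ifitm3 first exon: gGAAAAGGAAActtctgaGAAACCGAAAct
Ifitm2 held 1 match, beginning 46 bases before its RefSeq start (position 140955961) and 20 before the GENCODE start given above. Ifitm3 held 2, beginning at bases 3 and 20 from its RefSeq start (position 141010744) and at bases 29 and 46 from the GENCODE start, and the Ifitm1 window held none of these letters. Among other interferon-responsive genes the window held the motif in 11 of 23 type I interferon-stimulated genes and in 11 of 19 interferon gamma response genes that had a window.

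In the EC libraries, which summed 75.6 M to 129.5 M reads each, the endothelial markers Pecam1, Cdh5, Kdr, Tek, Cldn5, Egfl7, Emcn, Ramp2 and Calcrl together reached 15047 to 27578 CPM, against at most 50 CPM for the summed immune markers, 26.2 for mural and stromal markers and 21.6 for epithelial markers. In the TC libraries, of 31.9 M to 163.5 M reads, the summed epithelial keratins, Epcam and Cldn7 reached 2681 to 6415 CPM. Their summed endothelial markers stayed between 17.0 and 59.2 CPM, and their immune markers between 2.71 and 13.1 CPM outside the latent gate. In latent libraries the immune markers ranged from 5.43 to 245 CPM, with Ptprc and Lyz2 present and 8 of the 11 markers, among them Itgam and Adgre1, under 1 CPM in every latent library. Results on the latent gate are therefore also given without the cells that hold such markers.

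Ifitm3 was the most abundant member in ECs. Its level on day 0 was 5616, 7478, 6499 and 6886 CPM in the 4 animals (6620 ± 781, SD, n = 4). The day 1.5 animals had 13814, 9951 and 9948 CPM (11238 ± 2231, SD, n = 3). Those of day 3.5 had 14715, 11204 and 9710 CPM (11876 ± 2569, SD, n = 3). Every library of an injected animal thus lay above every uninjected library, a property shared by 830 of 17585 genes tested (4.72%) on day 1.5 and by 854 (4.86%) on day 3.5. The ranges of days 1.5 and 3.5 overlapped.

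The edgeR quasi-likelihood test over all genes gave Ifitm3 a log2 fold change of 0.71 ± 0.18 (SE) for day 1.5 against day 0, with an unadjusted p of 0.0025 and an adjusted p of 0.41. For day 3.5 against day 0 it gave 0.78 ± 0.18, with an unadjusted p of 0.0013 and an adjusted p of 0.40. Neither passed the threshold of 0.05. No gene at all did so in either comparison (0 of 17585, 0.00%), while 1422 and 1541 genes had an unadjusted p under 0.05. DESeq2 called 360 and 475 genes, with adjusted p-values for Ifitm3 of 0.10 and 0.048. With limma on the deposited log10 values, averaged over cells, Ifitm3 was called on both days. It lay at 3.39 to 3.63 on day 0, 4.10 to 4.37 on day 1.5 and 4.20 to 4.35 on day 3.5. On this scale 292 and 450 of 11326 genes were called higher, against 8 and 4 lower. Of the day 0 animals, 2 were sorted with the day 1.5 animals and 2 with the day 3.5 animals, and against the animals of the same sort day alone the estimates were 0.73 and 0.78, with adjusted p-values in edgeR of 0.64 and 0.63. Between days 1.5 and 3.5 the estimate was 0.07 ± 0.19. Both comparisons with day 0 share the same 4 uninjected libraries.

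For Ifitm2 the days overlapped in CPM. Uninjected animals had 2263, 3373, 2605 and 2874 CPM (2779 ± 468, SD, n = 4). The day 1.5 level was 3381, 3912 and 2752 CPM (3348 ± 581, SD, n = 3), and that of day 3.5 was 3855, 3264 and 2729 CPM (3283 ± 563, SD, n = 3). Some Ifitm2 was found in 80.2% to 91.5% of day 0 cells, 90.1% to 96.7% of day 1.5 cells and 93.2% to 96.6% of day 3.5 cells, and after thinning to 50000 reads in 74.0% to 88.1%, 83.9% to 94.4% and 91.5% to 95.0%. Over all sorted cells, those not kept included, the share was 75.3% to 85.8%, 91.4% to 94.8% and 79.2% to 89.6%, with day 3.5 overlapping day 0 and below day 1.5. The log2 fold changes against day 0 were 0.21 ± 0.19 and 0.17 ± 0.19 (adjusted p in edgeR 0.82 and 0.85). The 95% interval of the fold on day 1.5 reached from 0.898 to 1.49. On the deposited log10 values, averaged over cells, Ifitm2 did not overlap with day 0, at 2.82 to 3.30 on day 0, 3.49 to 3.61 on day 1.5 and 3.41 to 3.68 on day 3.5, and limma on these gave log2 estimates of 1.34 and 1.31 (adjusted p 0.069 and 0.064). The share of all genes without overlap on this scale was not counted. Genes in general leaned upwards on it, with all-gene medians of 0.15 and 0.16. On the 2 days 292 and 450 genes were called higher by limma, against 8 and 4 lower.

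Ifitm1 was scarce. Its EC libraries ranged from 0.244 to 43.2 CPM, and reads from single cells decided the higher values. In the EC library with the highest level, day 3.5 replicate 2, 73.1% of the Ifitm1 reads came from 1 of 213 cells, and in day 0 replicate 2 (23.1 CPM) 98.3% came from 1 of 226 cells. No direction between days was carried by these values, since the estimate for day 3.5 against day 0 changed from 0.53 ± 1.70 to -3.21 when day 3.5 replicate 2 was left out. Between 7.21% and 22.5% of ECs had an Ifitm1 value above 0. After each cell was thinned to 50000 reads the share was 0.465% to 5.66%.

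**Figure D1:**
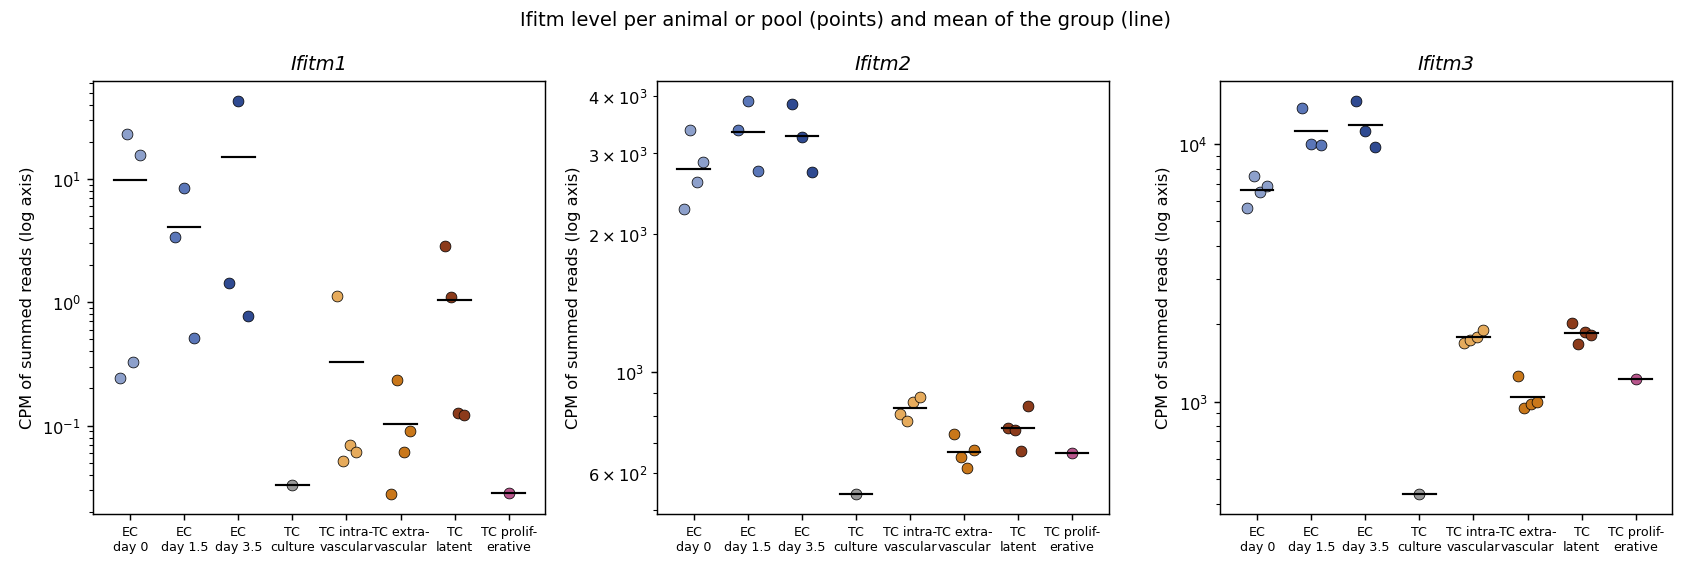
CPM of Ifitm1, Ifitm2 and Ifitm3 on log axes for each animal or pool (points) in the 3 EC days and 5 TC groups, with the group mean as a line. Ifitm3 in ECs of injected animals lies between 9710 and 14715 CPM, above the 5616 to 7478 CPM of uninjected animals, and in TCs the extravascular libraries lie below the intravascular and latent ones.

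Because the 3 transcripts have similar but unequal lengths, the members were compared with each other per kilobase of transcript. On day 0 the EC mean was 9763 CPM per kilobase for Ifitm3, 4243 for Ifitm2 and 13.4 for Ifitm1. The ratio of Ifitm3 to Ifitm2 on this scale was 2.32 ± 0.12 (SD, n = 4) on day 0, 3.30 ± 0.76 (n = 3) on day 1.5 and 3.48 ± 0.19 (n = 3) on day 3.5. The ratios of both later days, from 2.46 upwards, lay above the highest day 0 ratio of 2.41.

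Over single ECs, Ifitm3 was spread widely on day 0. In the 4 uninjected animals 57.7% to 68.3% of cells reached 1000 CPM or more, while 21.7% to 32.0% held less than 100 CPM. On day 1.5 the share at 1000 CPM or more was 80.5%, 66.2% and 82.1%, and on day 3.5 it was 84.6%, 85.4% and 89.1%. The share under 100 CPM averaged 26.4% on day 0, 13.9% on day 1.5 and 7.32% on day 3.5. The day 3.5 animals overlapped with neither of the other days in the share of cells at 1000 CPM or more, and day 1.5 replicate 2 fell within the range of day 0. The share of ECs with any Ifitm3 value was 90.99% to 98.3% on day 0, 99.1% to 100% on day 1.5 and 99.2% to 100% on day 3.5, and after thinning to 50000 reads it was 80.0% to 88.7%, 94.6% to 97.3% and 96.0% to 98.5%. These are shares of kept cells. Over all sorted cells they were 92.4% to 96.9%, 97.9% to 100% and 91.1% to 95.6%, so that day 3.5 overlapped with day 0. The median number of reads per cell was 312065 to 377693 on day 0, 277006 to 374925 on day 1.5 and 270585 to 390816 on day 3.5.

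**Figure D2:**
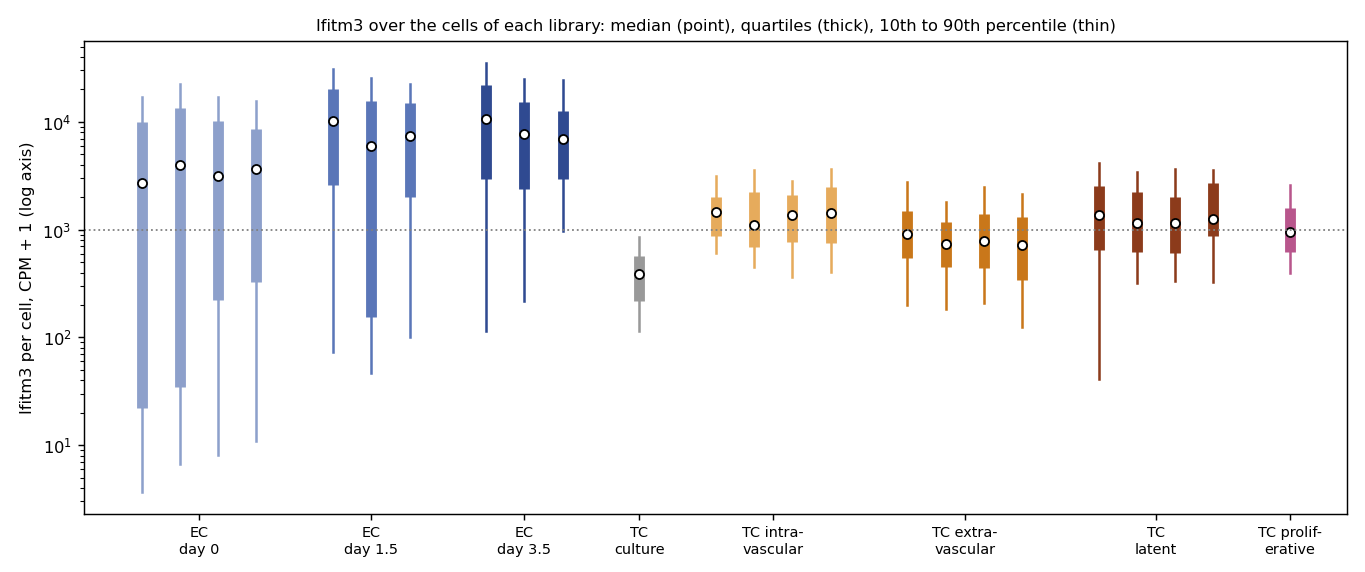
Ifitm3 per cell (CPM + 1, log axis) for every library, with the median as a point, the quartiles as a thick bar and the 10th to 90th percentiles as a thin bar. The dotted line marks 1000 CPM. The lower quartile of the day 0 EC libraries lies between 20.9 and 324 CPM, and that of the day 3.5 libraries between 2400 and 2972 CPM.

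The level of Ifitm3 was uneven between capillary classes. ECs were assigned by marker scores to general capillary cells (gCap, 1579 cells), the cells that can renew the capillary bed, to aerocytes (aCap, 604 cells), the large and thin capillary cells facing the alveoli, to large-vessel cells (131), to cycling cells (24) and to none (141). The scores are continuous, and 116 cells were less than 0.1 from being scored in or out of aCap. In aCap cells the Ifitm3 level on day 0 was 602, 814, 811 and 1288 CPM. The median aCap cell held only 7.78, 16.3, 19.1 and 47.9 CPM, far below the summed level. In gCap cells of the same animals the summed level was 7755, 10508, 9730 and 8794 CPM, so that gCap exceeded aCap 6.83- to 12.9-fold within an animal, and the median cell held 5324 to 7594 CPM. Large-vessel cells, 5 to 11 per animal, stood at 8511 to 14707 CPM.

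In aCap cells Ifitm3 stood at 3576, 3214 and 1904 CPM on day 1.5 and at 5228, 2280 and 3529 CPM on day 3.5. Each of these values exceeded all 4 values of day 0. The share of all genes doing so in aCap cells was not counted. The means were 3.30 and 4.19 times the day 0 mean. The median aCap cell held 161 to 1330 CPM on day 1.5 and 1065 to 2621 CPM on day 3.5. The share of aCap cells at 1000 CPM or more was 15.5% to 25% on day 0, 37.3% to 53.4% on day 1.5 and 51.4% to 78.6% on day 3.5. In gCap cells the level was 17750, 13160 and 13383 CPM on day 1.5 and 17627, 12681 and 11251 CPM on day 3.5, with means 1.61 and 1.51 times the day 0 mean. The ratio of gCap to aCap within an animal was 4.10 to 7.03 on day 1.5 and 3.19 to 5.56 on day 3.5. Whether the classes differ in their response was not tested. The aCap cells made up 24.4% to 26.5% of kept ECs on day 0, 23.3% to 28.3% on day 1.5 and 16.4% to 25.2% on day 3.5.

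The capillary classes lay closer together for Ifitm2. In aCap cells its mean was 2231 CPM on day 0, 1885 on day 1.5 and 2536 on day 3.5, and in gCap cells it was 2918, 3750 and 3284 CPM. The ratio of gCap to aCap within an animal was 1.03 to 1.58 for Ifitm2 on day 0, against 6.83 to 12.9 for Ifitm3. For Ifitm2 it was 1.67 to 2.45 on day 1.5 and 0.920 to 1.59 on day 3.5. On day 0 aCap cells thus held more Ifitm2 than Ifitm3 in each of the 4 animals (2150 against 602, 2823 against 814, 1863 against 811 and 2088 against 1288 CPM), and gCap cells held more Ifitm3. Transcripts of 655 and 678 bases make these levels close to comparable.

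**Figure D3:**
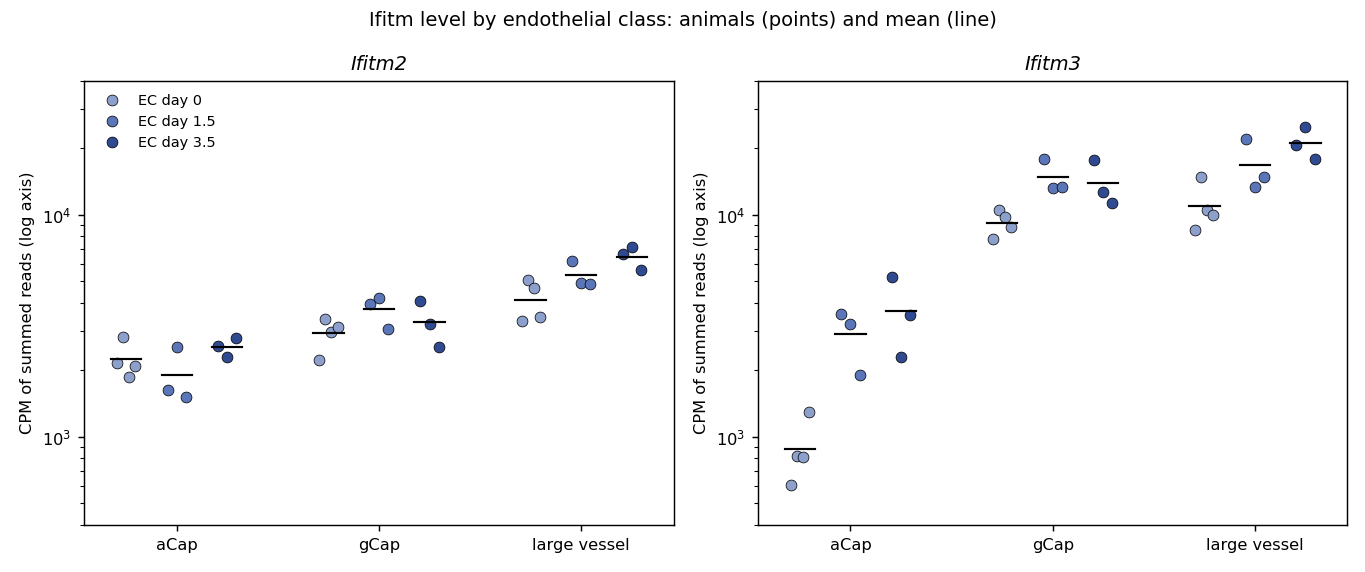
CPM of Ifitm2 and Ifitm3 on log axes in aCap, gCap and large-vessel ECs for each animal (points) by day, with the mean as a line. Ifitm3 in aCap cells lies between 602 and 1288 CPM on day 0 and between 1904 and 5228 CPM on the later days, while Ifitm2 in aCap cells overlaps between days.

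In TCs every gate taken from the lung held more Ifitm3 than the cultured cells, which stood at 437 CPM. Intravascular TCs had 1693, 1735, 1788 and 1899 CPM (1779 ± 89, SD, n = 4), extravascular TCs 1259, 947, 978 and 992 CPM (1044 ± 144, SD, n = 4), and latent TCs 2026, 1679, 1860 and 1819 CPM (1846 ± 143, SD, n = 4). The proliferative pool had 1221 CPM. In descending order, the latent and intravascular ranges overlapped, the proliferative pool lay inside the extravascular range, and culture lay below all of them. This order held in CPM. On the mean log10 values intravascular TCs (3.70 to 3.83) lay above latent TCs (3.53 to 3.66) without overlap, and the proliferative pool, at 3.54, lay above the extravascular range of 3.35 to 3.52. With 1 pool each, culture and the proliferative gate give no replicate check. TC gate means were 2.39 to 4.22 times the culture level.

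Extravascular and intravascular TCs of day 1.5 came from the same 4 animals. The ratio of Ifitm3 in extravascular to intravascular cells was 0.744, 0.546, 0.547 and 0.522, so it was lower in the extravascular cells of each animal. Extravascular libraries also had fewer genes detected, with a median of 5721 to 6081 per cell against 6294 to 6608 in intravascular and 6555 to 6870 in latent libraries, and the part of this in the levels was not tested. The median mitochondrial share was 2.23% to 3.16% in extravascular, 2.58% to 3.26% in intravascular and 1.48% to 1.94% in latent libraries. The estimate was a log2 fold change of -0.85 ± 0.10, given as a description since Ifitm3 was taken up for this difference. Ifitm2 lay at 811, 780, 861 and 882 CPM in intravascular and at 733, 652, 616 and 675 CPM in extravascular TCs, with ratios of 0.904, 0.835, 0.715 and 0.765 and an estimate of -0.40 ± 0.09. Both genes were below in every extravascular library, a property of 601 of the 19249 genes tested (3.12%). Ifitm1 was at or under 1.12 CPM in all 8 libraries.

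Every latent library lay above every extravascular one for Ifitm3, as for 2001 genes (10.4%), with an estimate of 0.69 ± 0.10. The extravascular libraries are those whose values led to the choice of Ifitm3, so this is likewise a description with no test. In this comparison 1650 of 19249 genes were called (8.57%), 693 of them higher (3.60%) and 957 lower (4.97%). Without the cells that held 100 CPM or more of immune, mural or endothelial markers (12 TCs in all groups) the estimate was 0.69. Ifitm2 lay at 752, 746, 672 and 844 CPM in latent TCs, overlapping with the extravascular range, with an estimate of 0.04 ± 0.09 (adjusted p in edgeR 0.85) and a 95% interval of the fold from 0.909 to 1.16. Ifitm1 averaged 1.05 CPM in latent and 0.103 CPM in extravascular TCs (3.16 ± 1.31, adjusted p in edgeR 0.17), and 98.9% of its reads in the highest latent library came from 1 cell.

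The proliferative pool stood below all 4 latent animals for Ifitm3 (1221 against 1679 to 2026 CPM). The share of all genes for which this 1 pool did so was not counted. For Ifitm2 it stood at 666 CPM, against 672 to 844 CPM. Per kilobase, the ratio of Ifitm3 to Ifitm2 was 0.781 in culture, 1.50 ± 0.12 in extravascular, 1.77 in proliferative, 2.06 ± 0.07 in intravascular and 2.38 ± 0.30 in latent TCs. Culture was the one TC group with more Ifitm2 than Ifitm3 on this scale.

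Over single TCs, 65.8% ± 2.6 (SD, n = 4) of intravascular, 36.7% ± 4.2 of extravascular and 59.6% ± 2.8 of latent cells reached 1000 CPM of Ifitm3. The extravascular range, 32.9% to 42.7%, overlapped with neither of the others. The share was 6.50% in culture and 46.8% in the proliferative pool. Nearly all TCs had some Ifitm3 (96.3% to 100% per library) and some Ifitm2 (92.5% to 100%), culture included with 366 and 369 of 369 cells. Over all sorted cells the lowest shares were those of the proliferative pool, 81.1% for Ifitm3 and 79.1% for Ifitm2, and the other libraries had 90.6% to 97.9% and 81.9% to 97.9%. Of cultured cells 3 of 369 had an Ifitm1 value above 0 (0.813%, exact Clopper-Pearson 95% interval 0.168% to 2.36%), and of proliferative cells 5 of 237 (2.11%, 0.688% to 4.85%). These intervals cover counting error only.

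Within single libraries, Spearman's correlation of Ifitm2 and Ifitm3 over cells was 0.156 to 0.417 in the 10 EC libraries and 0.230 to 0.659 in the 14 TC libraries. That of the scarce Ifitm1 with Ifitm3 was 0.179 to 0.429 in ECs and -0.172 to 0.246 in TCs, and with Ifitm2 it was 0.059 to 0.311 and -0.193 to 0.225, so that in TCs both took either sign. The points share the depth of each cell and, for these genes, some sequence.

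In mice that gave both cell types, ECs held far more Ifitm3 than TCs in CPM. On day 1.5 the EC level was 8.16, 5.74 and 5.56 times that of intravascular TCs of the same animal and 10.98, 10.504 and 10.2 times that of extravascular TCs. On day 3.5 it was 7.26, 6.67 and 5.22 times that of latent TCs. For Ifitm2 the ratios ranged from 3.20 to 6.005. On the mean deposited log10 values Ifitm2 overlapped between day 1.5 ECs (3.49 to 3.61) and intravascular TCs (3.42 to 3.55). It lay at 3.29 to 3.34 in extravascular TCs. On day 3.5 it was 3.41 to 3.68 in ECs and 3.13 to 3.31 in latent TCs. Ifitm3 on this scale was 4.10 to 4.37 in day 1.5 ECs against 3.70 to 3.83 in intravascular TCs. EC and TC complementary DNA was amplified over 22 and 18 cycles, which cannot be told apart from the cell type.

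The interferon ligands were hardly seen. Of 13 listed ligand genes 1 had a value above 0 in an EC library and 2 in a TC library, and Ifne was at most 0.556 CPM in a TC library. The receptors were present in both cell types. Ifnar1 and Ifnar2, the subunits of the type I receptor, averaged 102 and 236 CPM in day 0 ECs and 13.2 and 46.4 CPM in extravascular TCs, and Ifngr1 and Ifngr2, the interferon gamma receptor, 117 and 129 CPM against 18.9 and 79.7 CPM. None of the 11 receptor and signalling genes tested in ECs was called (0 by edgeR, where the whole comparison called none). In latent against extravascular TCs 1 of 12 was called, a share near the 8.57% of all genes tested. It was Irf9, a DNA-binding transcription factor of the type I interferon response, which rose from 2.14 to 10.7 CPM (2.17 ± 0.33, adjusted p in edgeR 0.0012).

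Of 32 type I interferon-stimulated genes, 5 rose in latent against extravascular TCs and none fell, against 3.60% of all genes called higher. The median log2 fold change was 0.86 for the list and 0.03 for all genes tested, and 28 estimates were above 0. The count depended on single libraries and on the tool. It was 12, with a median of 1.69, without extravascular replicate 2 and 3 without latent replicate 2, while DESeq2 called 12 of 30 higher (7.03% of all genes), limma on mean CPM 15 of 29 (11.4%) and limma on log10 values 22 of 25 (30.6%), none of them lower. The log10 values had an all-gene median of 0.23, with 4384 genes called higher and 1079 lower. Ly6e, a membrane-anchored interferon-induced protein, went from 58.1 to 195 CPM (1.61 ± 0.22, adjusted p in edgeR 0.00052). Ifi35 went from 76.8 to 168 CPM (0.99 ± 0.14, adjusted p in edgeR 0.00080). Oas1a and Oas3, which make the second messenger that activates RNase L, went from 8.25 to 61.4 and from 0.384 to 2.53 CPM, and Zbp1, a sensor of Z-form nucleic acids, from 1.97 to 12.3 CPM. The call of Zbp1 was lost without 1 library in 5 of 8 cases, and that of Oas1a in 2 of 8. In cells with at most 5% mitochondrial reads the adjusted p of Zbp1 in edgeR was 0.055.

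Of 27 interferon gamma response genes, 6 rose and none fell in the same comparison, with a median log2 fold change of 0.94. Without extravascular replicate 2 the count was 9 and the median 1.99, and without extravascular replicate 3 or latent replicate 4 the count was 4. The share of all genes called higher was again 3.60%. DESeq2 called 9 of 26 (7.03% of all genes), limma on mean CPM 9 of 24 (11.4%) and limma on log10 values 17 of 22 (30.6%). Some marker lists of other cell types were higher in estimate in the same comparison. Above 0 were 6 of 7 tested immune markers (median 3.85, 1 called), 7 of 8 endothelial markers (median 3.34, none called) and 10 of 11 aCap markers (median 3.76, 1 called). Of mural and stromal markers 2 of 6 were above 0 (median -0.54, none called). Of gCap markers 7 of 11 were above 0 (median 0.17, 1 called lower), and of large-vessel markers 8 of 11 (median 0.54, none called). Summed levels of immune markers were 5.43 to 245 CPM in latent against 2.71 to 11.5 CPM in extravascular TCs. Those of endothelial markers were 19.8 to 59.2 against 17.0 to 26.1 CPM. Without the cells that held such markers the counts were also 5 type I genes and 6 gamma genes. The called genes included all 3 inducible catalytic subunits of the immunoproteasome, which trims peptides for class I presentation. Psmb8 went from 94.3 to 396 CPM (1.93 ± 0.13, adjusted p in edgeR 8.4e-06), Psmb9 from 10.4 to 49.3 CPM and Psmb10 from 199.6 to 358 CPM. The others were Gbp2, a guanylate-binding GTPase (3.43 to 14.8 CPM), the transcription factor Irf1 (23.8 to 50.6 CPM) and the class II transactivator Ciita (0.159 to 0.886 CPM). Leaving out 1 library at a time ended the call of Ciita in 7 of 8 cases, that of Irf1 in 2 and that of Oas3, Gbp2 and the Psmb genes in none. The adjusted p of Irf1 in edgeR was 0.054 in cells with at most 5% mitochondrial reads, and that of Ciita was 0.075 with all sorted cells, 0.072 with no filter on low counts and 0.30 with limma on log10 values.

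Between extravascular and intravascular TCs, where 183 of 19249 genes were called (0.951%) and 34 with the animal as a replicate block, Psmb8 fell from 197 to 94.3 CPM (-1.14 ± 0.13, adjusted p in edgeR 0.0032, with the block 0.048). Psmb10 fell from 291 to 199.6 CPM (adjusted p 0.016, with the block 0.058) and Xaf1, an interferon-induced binding partner of the apoptosis inhibitor XIAP, from 67.1 to 42.6 CPM (adjusted p 0.044, with the block 0.10). No other gene of the type I and gamma lists was called by edgeR in this fit, and their medians were -0.32 and -0.38. DESeq2 called 2 of 30 type I and 4 of 26 gamma genes lower, against 3.38% of all genes it called lower, and limma on log10 values 5 of 25 and 3 of 22, against 12.3%, with none called higher. With all sorted cells edgeR called 1 and 3 lower. These medians moved to -0.66 and -1.03 without extravascular replicate 2, and that of the type I list to -0.049 without extravascular replicate 4 and to 0.015 in cells with at most 5% mitochondrial reads. Leaving out 1 library at a time ended the call of Xaf1 in 7 of 8 cases, that of Psmb10 in 3 and that of Psmb8 in none. Without the cells that held markers of other cell types the adjusted p of Xaf1 was 0.052.

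**Figure D4:**
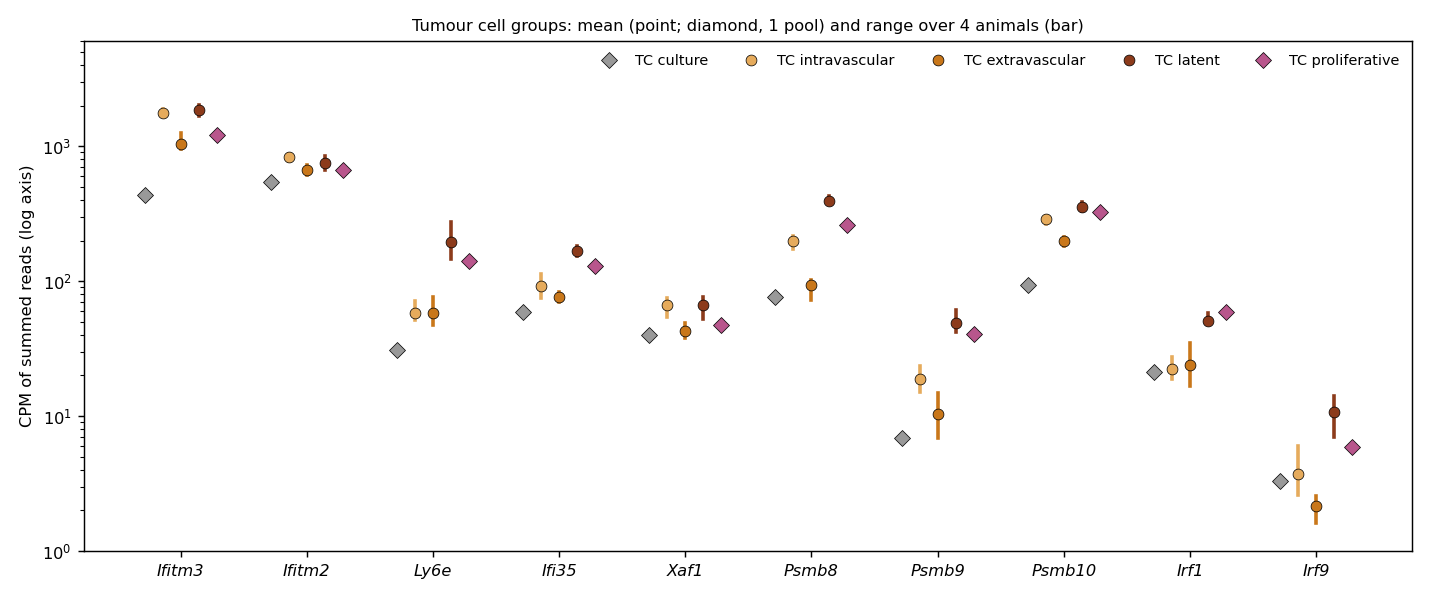
CPM on a log axis of Ifitm3, Ifitm2 and 8 interferon-responsive genes in the 5 TC groups, as the mean over 4 animals (circle) with their range (bar) or the value of 1 pool (diamond). Ifitm3, Ifitm2, Xaf1, Psmb8, Psmb10 and Irf9 are lower in extravascular than in intravascular TCs without overlap of the ranges. Ifitm3, Ly6e, Ifi35 and the Psmb genes are higher in latent than in extravascular TCs.

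In ECs no gene of the type I or gamma list was called by edgeR on either day in kept cells of all libraries. For the type I list 26 of 32 estimates were above 0 on day 1.5 and 24 on day 3.5, with medians of 0.62 and 0.46 against -0.05 and -0.06 for all genes. Class markers moved in estimate in the same comparisons, none of them called. Of 12 aCap markers 11 were below 0 on both days (medians -0.60 and -0.70). Of 13 gCap markers 10 and 9 were below 0 (medians -0.18 and -0.24). The general endothelial markers had 8 of 9 below 0 on both days (medians -0.29 and -0.30). Large-vessel markers had 8 of 12 above 0 on both days (medians 0.40 and 0.11). Of 54 cycling markers 41 and 39 were above 0 (medians 0.96 and 1.32). The part of these markers in the list values was not tested. DESeq2 called 3 of the 32 higher on each day and none lower, against 1.22% and 1.52% of all genes it called higher, and limma on the deposited log10 values called 8 and 9 of 25 higher, against 2.58% and 3.97%. The log10 values had an all-gene median of 0.15 and 0.16, and 292 and 450 genes were called higher against 8 and 4 lower, where DESeq2 called 205 and 255 higher against 155 and 220 lower. The smallest p-values on day 1.5 were those of Usp18, the protease that removes ISG15 from proteins (12.4 to 40.3 CPM), Ly6e (2276 to 3726 CPM) and Isg15 itself (8.60 to 43.9 CPM), with adjusted p-values in edgeR of 0.42, 0.47 and 0.48. On day 3.5 Xaf1 stood at 630 against 253 CPM (1.25 ± 0.21, adjusted p in edgeR 0.20). The gamma list had medians of -0.33 and -0.04, with 1 gene called higher on each day by DESeq2 and 1 lower on day 1.5 (0.921% of all genes were called lower). Its chemokine Cxcl10 was at 0.00304 CPM on day 0, 57.6 CPM on day 1.5 and 8.08 CPM on day 3.5 (adjusted p in edgeR 0.093 and 0.18), a fold that depends on the prior count because the day 0 level was next to 0. With all sorted cells edgeR called Cxcl10 on both days (adjusted p 0.0045 and 0.019), and without EC day 3.5 replicate 2 on day 3.5 (adjusted p 0.043).

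Other genes of the family were low. Ifitm5, Ifitm6 and Ifitm7 averaged at most 4.06 CPM in any group. Ifitm10, a distant relative about which less is known, was an endothelial transcript here, at 259 CPM in day 0 ECs, 118 on day 1.5 and 147 on day 3.5 (-1.19 ± 0.36 for day 1.5, adjusted p in edgeR 0.48), and at most 2.98 CPM in any TC library. Enzymes that act on the IFITM3 protein were present in both cell types. Nedd4, a ubiquitin ligase that promotes its turnover, averaged 259 to 312 CPM in ECs and 133 to 176 CPM in TCs. Zdhhc20, a palmitoyltransferase, averaged 40.5 to 41.7 CPM in ECs and from 8.41 CPM upwards in TCs. None of the 6 genes of this list was called by edgeR in any tested comparison, where 0.00% of all genes were called in ECs, 0.951% between extravascular and intravascular TCs and 8.57% between latent and extravascular TCs.

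The genes whose levels ran most alike with Ifitm3 over libraries, by Pearson's correlation of log2(CPM + 1) and among genes with a mean of at least 10 CPM, were Ift172 (0.960), Psme2 (0.9502), Mgst3 (0.943), Myl6 (0.938) and Chmp2a (0.935) over the 14 TC libraries. Psme2 encodes an interferon-inducible activator subunit of the proteasome. Over the 10 EC libraries they were Atp5g1 (0.943), Serpina3g (0.938), Gm11808 (0.926), Gm10039 (0.915) and Timp1 (0.910). For Ifitm2 they were Dynlrb1 (0.940), Ppp2r2d (0.901), Myl6 (0.888), Psmb3 (0.884) and Ndufb10 (0.871) in TCs, and Aamdc (0.949), Tmem80 (0.915), Coprs (0.903), Nek7 (0.899) and Ndufb2 (0.899) in ECs. Ifitm2 came at rank 53 of 6839 TC genes by likeness to Ifitm3 (0.850) and at rank 210 of 8788 EC genes (0.720). The points of these correlations include whole groups that stand apart, so the values describe the order of groups as much as the spread within them.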

How the data were processed

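The members and gene lists were chosen with earlier results of these data known. Each sorted cell was 1 library made by a modified SMART-Seq2 protocol without molecular identifiers. The raw tables hold estimated counts, which the authors deposited per lane after bcl2fastq and Salmon 0.7.2 on GRCm38 (per the labels) and tximport. The annotation release is not given in the sources used here. The filtered tables hold log10 values deposited by the authors: the estimated count over the mean of the detected housekeeping panel genes (8 found), times 10000, plus 1. These were used for the choice of kept cells, for EC classes and for an alternative test.

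Estimated counts of kept cells were summed per animal and group and rounded. Depth was 31.9 M to 163.5 M reads per TC library and 75.6 M to 129.5 M per EC library (M, megareads). The sums were tested with edgeR 4.0.16 (quasi-likelihood, TMM factors, filterByExpr, Benjamini-Hochberg over all genes tested, threshold 0.05), in 1 fit for the 10 EC libraries and 1 for the 13 in vivo TC libraries. CPM is the summed estimated count with each library scaled to the same total, and transcript lengths are GENCODE medians. The animal was the replicate. Classes followed the study's thresholds on Seurat 5.3.0 module scores. Alternatives were DESeq2 1.42.0, limma 3.58.1 on mean log10 or log2 CPM values, other cell filters, the replicate block, leaving out each library and, chosen after seeing the data, day 0 animals of the same sort day, a 1000 CPM limit and removal of cells with markers of other types. Tests were checked on simulated data. Named genes were the 3 members, the 5 most alike by correlation, and per list and comparison the genes called (at most 6) or otherwise the 3 with the smallest p. Members of the receptor, family and enzyme lists could be named freely. One gene of the receptor and signalling list is not reported here.

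The replicate numbers pair extravascular with intravascular libraries, since the annotation gives the same animal for both. Over 6418 genes the deviations of same-numbered libraries correlated at 0.25, 0.07, 0.06 and -0.03. With the replicate block 34 genes were called in place of 183. The p-values cover the spread between animals.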

Additional observations from a re-analysis of the deposited data

Results flagged for a closer look

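Of 23 sets of 4 libraries examined, 3 held a library far from the others, and chance flags about 1 in 20. Ifitm3 in extravascular TCs was 1259 CPM in replicate 1 and 947 to 992 CPM in the other animals. This library also holds the extravascular to intravascular ratio of 0.744 that stands above the ratios of 0.522 to 0.547 in the other 3 animals. Ifitm1 in intravascular TCs was 1.12 CPM in replicate 1 and 0.0521 to 0.0689 CPM in the others, with 91.6% of its reads in 1 cell. Ifitm2 was above 0 in 98.8% of intravascular cells of replicate 4 and in 100% of those of the others.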

How the results depend on the processing

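The estimate of Ifitm3 in latent against extravascular TCs ranged from 0.56 to 0.79 over 17 alternatives. These rest on the extravascular values that led to its choice, and give no support to it. In ECs Ifitm3 stayed above 0 on both days in all 16 alternatives (0.53 to 2.46 and 0.61 to 2.40). It passed the threshold with limma on mean log10 values (2.36 and 2.40, and without B2m in the panel 2.46 and 2.37) and, on day 3.5, with DESeq2 (0.77). Adjusted p-values for it ranged from 9.9e-05 to 0.68 and from 6.6e-05 to 0.63.

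Genes called in ECs for days 1.5 and 3.5 against 0 and for day 3.5 against 1.5 numbered 360, 475 and 124 with DESeq2, 300, 454 and 3 with limma on log10 values, 300, 303 and 2 without B2m, and 5, 7 and 1 on mean CPM. All sorted cells gave 1 and 1, at most 5% mitochondrial reads gave 1 on day 1.5, and leaving out a library 0 to 1. For extravascular against intravascular TCs the counts were 1308, 1979, 2052 and 492, with the replicate block 34, and without 1 library 8 to 518, with 518 without extravascular replicate 1. For latent against extravascular TCs they were 2712, 5463 and 5528. The cause of these differences was not tested.

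On log10 values the extravascular estimates were -0.54 and, without B2m, -0.57 for Ifitm2 and -1.06 and -1.08 for Ifitm3, and Ifitm2 in latent TCs reversed to -0.30 and -0.28. Without 1 library Ifitm2 in latent TCs ranged from -0.043 (latent replicate 4) to 0.083, at -0.0059 without extravascular replicate 3. Between days 3.5 and 1.5 Ifitm3 reversed to -0.087 without B2m, and without 1 library ranged from -0.12 to 0.27, Ifitm2 from -0.17 to 0.087. Ifitm1 on day 1.5 reversed to 0.16, 0.20 (without B2m) and 0.65 (mean CPM), and against days 0 and 1.5 without EC day 3.5 replicate 2 to -3.21 and -1.89 (over single left-out libraries at most 1.38 and 2.92). With the replicate block the estimates of Ifitm2 and Ifitm3 in extravascular against intravascular TCs were -0.40 and -0.85. The alternative of 4 proliferative libraries was not run, since the cell names tie to no replicate of the labels. Ifitm1 had few reads: at 3 reads among 369 cultured cells its changes cannot be read.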
